A study of Homo sapiens with 9 samples.

Results

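The jumonji histone demethylases described here are 9 genes, KDM6B, KDM7A (older name JHDM1D), JMJD1C, JMJD6, KDM2A, KDM3A, KDM3B, KDM4A and KDM4B, of 14884 named genes on the arrays. Each was found by its symbol and had 1 probe set, of the 53617 on the array, that carried that symbol alone. All 9 passed the filter on low values that left 12155 genes. They were chosen for their differences between cells given 5 nm silver particles and unexposed cells. KDM6B, KDM7A, JMJD1C and JMJD6 were taken as members that were higher. The other 5 were taken as paralogs whose differences were smaller or negative. The 5 nm differences of all 9, against controls and against 100 nm particles, are therefore given as description with no test. The 100 nm comparison with controls and the jumonji genes outside the 9 were tested.

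The cells were EA.hy926, an established line made by fusing umbilical vein endothelial cells with A549 lung carcinoma cells. Of the 9 arrays, 3 came from cells kept for 6 h with silver nanoparticles of 5 nm, 3 from cells kept for 6 h with silver nanoparticles of 100 nm, and 3 from unexposed control cells. Both particles were given near their LD50, the median lethal dose, so particle size and dose cannot be told apart. No mass dose is given in the sources used. As 1 hybrid line with a carcinoma parent, the cells model endothelium only in part. All 9 named endothelial markers reached a log2 intensity of 5, the floor for testing, on all 9 arrays, among them PECAM1, TIE1, ERG and ENG. VWF and CLDN5 lay nearest to the floor, with control means of 5.98 and 6.63. The floor was below the median of every array, from 5.153 to 5.637, so reaching it is weak evidence of expression. CDH5 and TEK were not analysed here. Of the epithelial markers of the carcinoma parent, KRT8, KRT18, KRT19, SFTPC, SFTPB and NKX2-1 reached the floor on all 9 arrays, and EPCAM on 3. Reaching the floor therefore does not separate endothelial from epithelial markers. The fibroblast genes DCN and LUM were above it on 0 arrays. CD68, used as a leukocyte marker, was above it on all 9 arrays and CD14 on 3. The labels do not state whether the replicates were grown as separate cultures; the p-values may therefore reflect technical spread alone.

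Jumonji enzymes are oxygenases that use iron, molecular oxygen and 2-oxoglutarate to hydroxylate their substrates, and most of the family removes methyl groups from histone lysines in this way. Different classes act on different marks. KDM6 enzymes remove the repressive mark that Polycomb proteins place, KDM3 and KDM4 enzymes act on the marks of silent heterochromatin, and KDM2 enzymes bind CpG islands and remove a mark linked to transcribed regions. Several family genes are themselves inducible: KDM6B is known as an early-response gene in activated macrophages, and KDM3A and KDM4B as hypoxia-induced genes.

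Values are log2 intensities as normalized by the authors. The arrays carry an offset by replicate number: the 3 arrays of a number have nearly the same quantiles, and many probe sets hold the same value on all of them. Normalization run separately for each number could leave such a pattern; the processing notes do not say how it was run, and this was not tested. Differences are therefore given within each number, in the order replicate 1, 2 and 3, with the mean and SD over the 3. Since intensity also depends on the probe, levels are compared within a gene and never between genes. A level is per RNA loaded, so fewer cells of a type and less RNA per cell cannot be told apart.

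KDM6B, also known as JMJD3, demethylates the Polycomb mark. Its log2 intensity was 9.77, 10.40 and 9.38 with 5 nm particles, 8.16, 7.52 and 7.94 with 100 nm particles, and 8.07, 7.56 and 7.85 in controls. All 3 of the 5 nm arrays lay above every other array, and the 100 nm and control arrays overlapped. The differences of 5 nm from control were 1.69, 2.84 and 1.54, a mean of 2.02 ± 0.71 (SD, n = 3) or 4.06-fold. KDM6A, or UTX, the paralog with the same substrate, differed by 0.19, 0.61 and 0.13, a mean of 0.31. It did not pass (limma adjusted p = 1, and 0.324 with the replicate number as a block). The difference of KDM6B exceeded that of KDM6A by 1.497, 2.23 and 1.40 within the 3 numbers, a mean of 1.71 ± 0.45 (SD, n = 3).

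KDM7A demethylates repressive marks on histone H3 and binds chromatin through a PHD finger. Its log2 intensity was 8.95, 9.09 and 7.35 with 5 nm particles, 6.78, 6.05 and 6.18 with 100 nm particles, and 6.69, 6.00 and 6.37 in controls. The 5 nm arrays again lay above all others, with the array of replicate 3 well below the other 2. The differences from control were 2.26, 3.10 and 0.98, a mean of 2.11 ± 1.06 (SD, n = 3) or 4.33-fold, so the size varied by more between numbers than for KDM6B. KDM2A, a paralog of the same class that binds CpG islands, had 9.20, 8.995 and 8.68 with 5 nm particles against 9.20, 8.64 and 8.68 in controls. Its difference was 0.35 in replicate 2 and exactly 0 in replicates 1 and 3; 2 of the 9 genes, and 74.8% of all genes tested, had an exact 0 in at least 1 number. Of the remaining class members, KDM2B differed by 0 in every number, PHF2 by a mean of -0.05 and PHF8 by 0.05, none of which passed in limma (adjusted p = 1 each). Within the numbers KDM7A exceeded KDM2A by 2.26, 2.74 and 0.98.

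**Figure D1:**
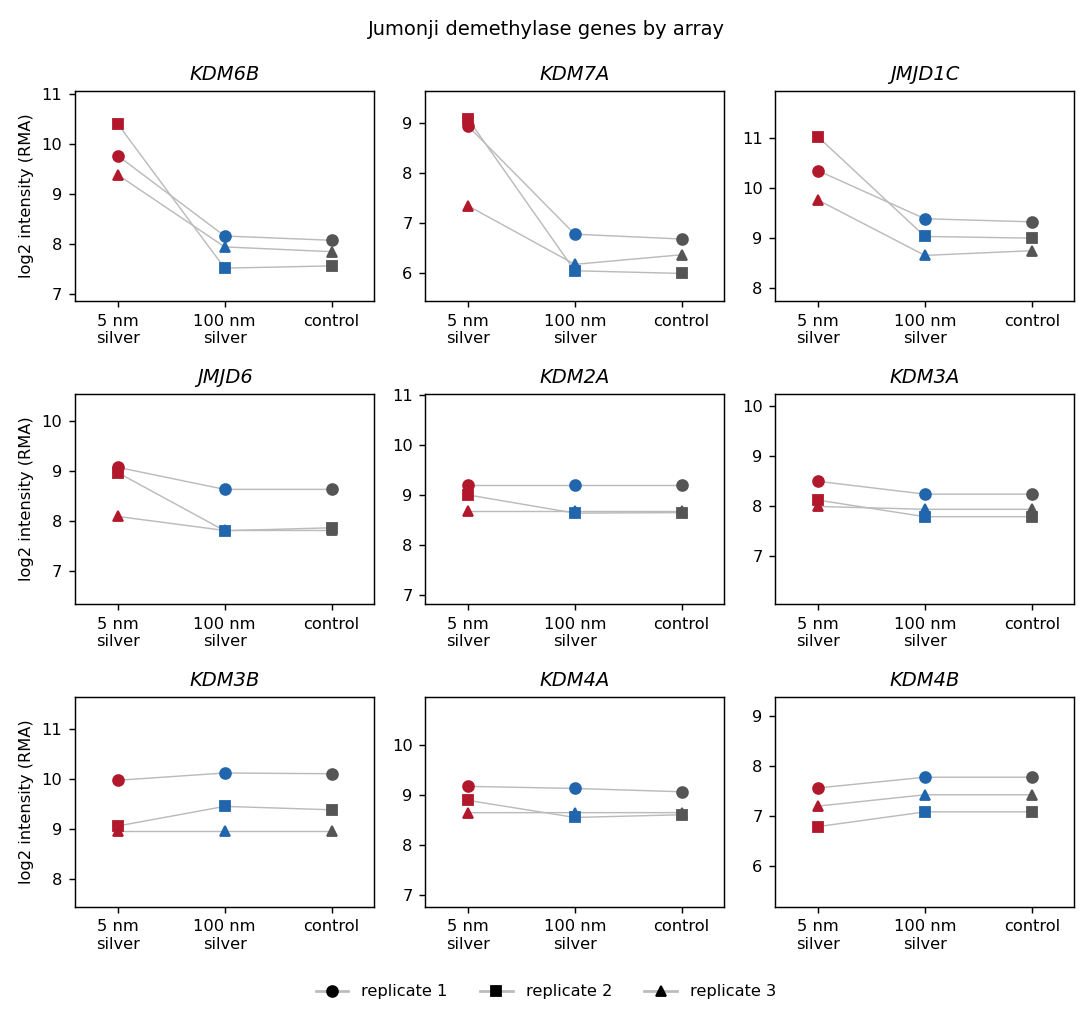
The 9 panels plot the log2 intensity of each gene on each array, with 5 nm, 100 nm and control arrays from left to right, a marker shape per replicate number and grey lines joining arrays of 1 number; all panels span the same number of log2 units. KDM6B, KDM7A and JMJD1C have all 3 of the 5 nm arrays above the rest, whereas KDM2A and KDM3B follow the offset between replicate numbers.

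The starts of these genes are shown because KDM6B and KDM7A were the members furthest above control. KDM6A, the closest paralog of KDM6B, differed less, by a mean of 0.31. JMJD1C and KDM3A make the same contrast in the KDM3 class. The sequences are the 250 bases before an annotated start, from RefSeq on GRCh38.p14, 5′ to 3′ on the strand of the gene. RefSeq promoter entries matched 8 of the 9 genes in 13 windows; JMJD6 had none. Capitals mark matches, on either strand, to 7 short motifs: the heat shock element GAANNTTC, the AP-1 site TGANTCA, the cyclic AMP response element TGACGTCA, the antioxidant response element TGACNNNGC, the metal response element TGCACNC or TGCGCNC, the hypoxia response element core ACGTG and the ATF4 site TGATGNAA. KDM6B has starts at chr17:7833967-7834216 and chr17:7839667-7839916 on the plus strand. KDM6A is at chrX:44872938-44873187 on the plus strand, and KDM7A at chr7:140176984-140177233 on the minus strand. JMJD1C has 3 listed starts, of which the one at chr10:63465978-63466227 on the minus strand is shown, and KDM3A has 2, of which the one at chr2:86441211-86441460 on the plus strand is shown.
KDM6B, upstream start: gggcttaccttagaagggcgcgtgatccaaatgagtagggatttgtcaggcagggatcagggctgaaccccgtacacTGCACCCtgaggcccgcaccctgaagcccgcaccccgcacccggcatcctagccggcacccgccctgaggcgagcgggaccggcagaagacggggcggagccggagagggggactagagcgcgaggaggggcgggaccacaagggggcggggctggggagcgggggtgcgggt
KDM6B, downstream start: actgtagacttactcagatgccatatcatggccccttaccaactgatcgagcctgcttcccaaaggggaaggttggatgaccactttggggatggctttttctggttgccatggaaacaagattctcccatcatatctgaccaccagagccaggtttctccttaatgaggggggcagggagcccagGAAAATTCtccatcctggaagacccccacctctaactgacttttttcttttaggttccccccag
KDM6A: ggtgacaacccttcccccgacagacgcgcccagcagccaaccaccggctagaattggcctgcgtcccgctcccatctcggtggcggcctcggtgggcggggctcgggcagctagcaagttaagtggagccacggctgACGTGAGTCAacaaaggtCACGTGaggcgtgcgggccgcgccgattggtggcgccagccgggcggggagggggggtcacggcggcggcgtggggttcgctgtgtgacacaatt
KDM7A: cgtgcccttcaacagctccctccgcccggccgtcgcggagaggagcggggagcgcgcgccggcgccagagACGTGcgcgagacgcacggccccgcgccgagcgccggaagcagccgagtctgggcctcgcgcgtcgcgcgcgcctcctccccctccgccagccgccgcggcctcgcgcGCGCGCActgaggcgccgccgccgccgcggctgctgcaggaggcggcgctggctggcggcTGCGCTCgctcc
JMJD1C: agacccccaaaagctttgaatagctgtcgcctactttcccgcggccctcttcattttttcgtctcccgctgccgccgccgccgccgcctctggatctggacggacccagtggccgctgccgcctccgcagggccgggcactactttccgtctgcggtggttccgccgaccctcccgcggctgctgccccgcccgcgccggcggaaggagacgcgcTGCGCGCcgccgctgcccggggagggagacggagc
KDM3A: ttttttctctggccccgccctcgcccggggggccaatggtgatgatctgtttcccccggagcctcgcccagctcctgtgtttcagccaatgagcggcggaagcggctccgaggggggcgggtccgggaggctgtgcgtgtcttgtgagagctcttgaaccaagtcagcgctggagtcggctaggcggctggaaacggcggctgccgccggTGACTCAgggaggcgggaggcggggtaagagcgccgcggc

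The upstream KDM6B window held 1 metal response element match, and the downstream window 1 heat shock element match at 57 to 64 bases before the start. A heat shock element match was present in 5.78% of all 35116 promoter windows and a metal response element match in 24.8%. KDM7A held 2 metal response element matches and 1 hypoxia core, which 18.5% of windows hold. KDM6A held an AP-1 match that overlaps a hypoxia core by 2 bases, and 2 further hypoxia core matches, on opposite strands of 1 palindrome. KDM3A held 1 AP-1 match, present in 6.57% of windows, and the JMJD1C window 1 metal response element match. Metal response element matches were not limited to the higher genes: KDM2A held 2, and KDM2B, KDM4C and KDM4D also had them. Nor were the other motifs: PHF8, which did not pass, held heat shock element matches. KDM4B, which was lower in every number, held hypoxia core matches. Of the windows not printed, the JMJD1C window furthest upstream held 2 overlapping hypoxia core matches and no other motif, its remaining window none, and the other KDM3A window none. GC content was 70.4% and 50.4% in the KDM6B windows, 69.2% for KDM6A and 81.6% for KDM7A, against a median of 58% over all windows. A match describes letters in the window and is not evidence of binding, and the arrays do not show which start was used.

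JMJD1C belongs to the KDM3 class and is assigned to demethylation of heterochromatin marks, although its own activity is debated. Its log2 intensity was 10.34, 11.02 and 9.76 with 5 nm particles, 9.38, 9.03 and 8.65 with 100 nm particles, and 9.32, 8.99 and 8.74 in controls. The 5 nm arrays did not overlap the others. The differences from control were 1.02, 2.03 and 1.01, a mean of 1.35 ± 0.58 (SD, n = 3) or 2.56-fold. KDM3A, an established demethylase of the same mark, had 8.49, 8.11 and 7.99 with 5 nm particles and 8.23, 7.78 and 7.93 in controls, with overlap of the groups. Its differences were 0.26, 0.33 and 0.06, positive in every number with a mean of 0.21 ± 0.14 (SD, n = 3). KDM3B, whose enzyme acts on the same mark, had 9.98, 9.06 and 8.96 with 5 nm particles and 10.11, 9.39 and 8.96 in controls, with overlap of the groups. Its differences had the opposite sign, at -0.13, -0.32 and exactly 0. JMJD1C exceeded KDM3A by 0.77, 1.70 and 0.96 and KDM3B by 1.15, 2.35 and 1.01. HR, the hairless gene of the same class, differed by a mean of -0.05 and did not pass (limma adjusted p = 1).

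In the KDM4 class, whose enzymes act on trimethylated lysines of heterochromatin and gene bodies, the 2 genes had opposite signs. KDM4B was lower in every number, by -0.21, -0.30 and -0.23, a mean of -0.25 ± 0.04 (SD, n = 3) or 0.844-fold. Its log2 intensity was 7.55, 6.78 and 7.19 with 5 nm particles and 7.77, 7.08 and 7.42 in controls, so the shift was visible within numbers while the groups overlapped across them. It was the member whose difference varied least between numbers. KDM4A differed by 0.11, 0.29 and -0.0011, and the gap of KDM4A over KDM4B was 0.32, 0.58 and 0.23. KDM4C did not differ in any number, and KDM4D differed in replicate 3 alone, by -0.47; both had a limma adjusted p of 1.

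JMJD6 is the most distant member: it hydroxylates lysines of splicing factors, and its arginine demethylase activity is disputed. Its log2 intensity was 9.08, 8.97 and 8.10 with 5 nm particles, 8.64, 7.81 and 7.82 with 100 nm particles, and 8.64, 7.87 and 7.82 in controls. The groups overlapped through the offset between numbers, while each 5 nm array lay above the control of its own number. The differences were 0.44, 1.10 and 0.28, a mean of 0.61 ± 0.44 (SD, n = 3) or 1.52-fold.

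**Figure D2:**
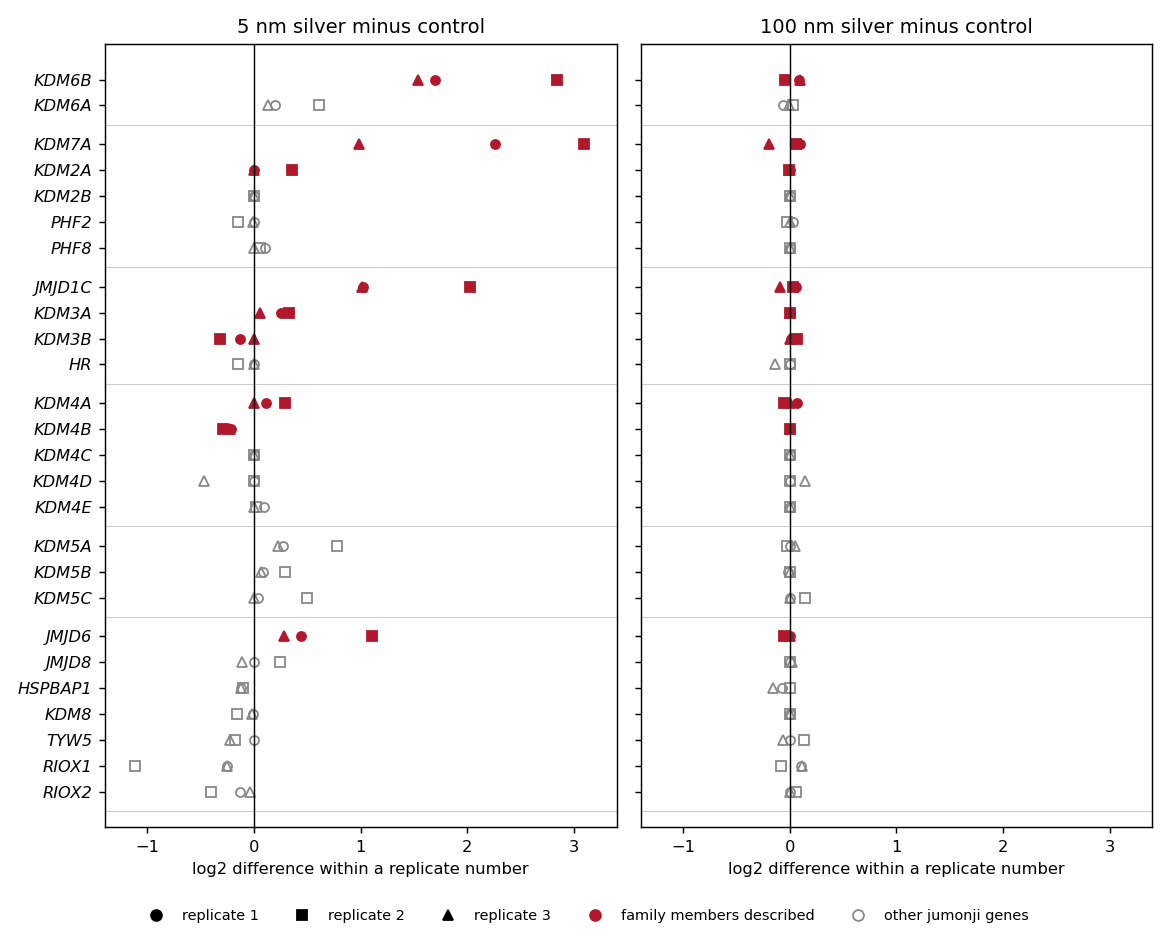
Points show the log2 difference from the control of the same replicate number for 26 jumonji genes, grouped by class and separated by grey lines, with 5 nm silver on the left and 100 nm silver on the right; filled red symbols are the 9 genes described and open grey symbols the others. KDM6B, KDM7A and JMJD1C stand to the right of their paralogs at 5 nm, and at 100 nm the 9 genes lie between -0.19 and 0.10.

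Across the 9 genes, 5 were higher in all 3 numbers with 5 nm particles and 1, KDM4B, was lower in all 3. Over all genes tested 8.03% were higher and 13.4% lower in all 3. The 5 nm arrays lay wholly above the control range for 3 of the 9, as for 1.41% of all genes tested, and above the 100 nm range for the same 3 (1.37% of all genes). They lay wholly below the control range for 0 of the 9, against 0.469% of all genes. These contrasts chose the genes, so the counts only describe the choice. By mean difference KDM7A ranked 11 from the top of the 12155 genes, KDM6B 14, JMJD1C 40 and JMJD6 194, and KDM4B ranked 948 from the bottom. The median difference was 0.21 over the 9 and 0 over all genes tested.

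**Figure D3:**
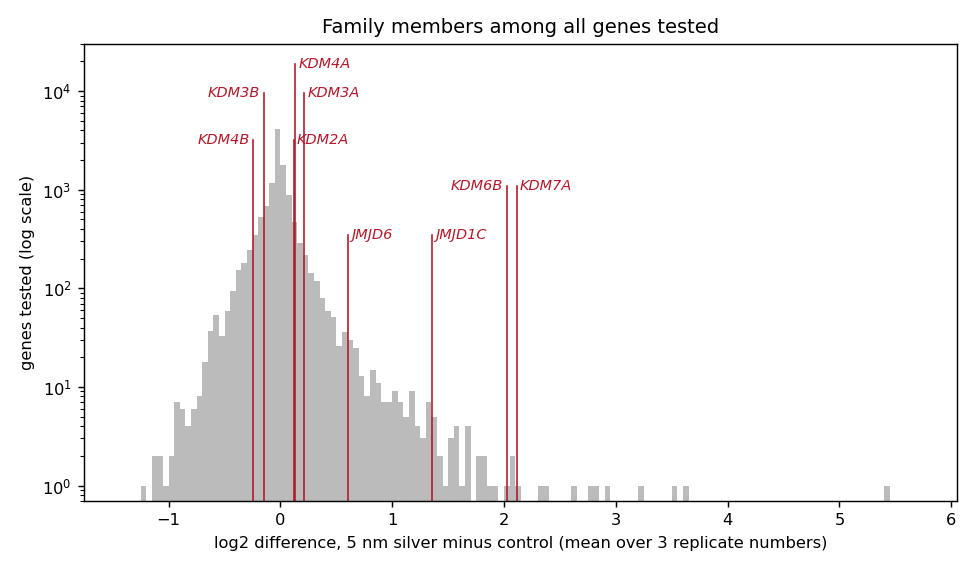
The histogram counts the 12155 genes tested, on a log axis, by their mean log2 difference of 5 nm silver from control, and red lines mark the 9 genes, with line height used only to separate labels. KDM7A, KDM6B and JMJD1C lie in the sparse upper tail at 2.11, 2.02 and 1.35, and KDM3B and KDM4B lie below 0.

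The size of the response depended on the replicate number. All 9 genes had their largest absolute 5 nm difference in replicate 2, whether positive or negative, as did 10 of the 17 other jumonji genes and 45.1% of all genes tested. Over all genes the SD of the 5 nm difference was 0.38 in replicate 2, against 0.21 in replicate 1 and 0.18 in replicate 3. Without replicate 2 the mean difference was 1.61 for KDM6B, 1.62 for KDM7A, 1.02 for JMJD1C and 0.36 for JMJD6. Of the 4, only JMJD6 moved by over 1.5 times, and KDM2A had a difference of 0. What set replicate 2 apart was not tested.

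With 100 nm particles the levels of the 9 genes stayed near those of the controls. In limma 0 of 9 passed after Benjamini-Hochberg adjustment (adjusted p = 1 each), where 0% of the 12155 genes passed, and 0 of 9 passed with the replicate block. Unadjusted, 0 of the 9 were below 0.05 in either fit, where 0% of all genes tested were without the block and 0.271% with it. KDM6B differed by 0.09, -0.05 and 0.10 in the 3 numbers, with a mean of 0.05 (95% interval -0.60 to 0.70, and -0.85 to 0.94 with the block). KDM7A differed by 0.10, 0.05 and -0.19 (mean -0.01, interval -0.96 to 0.94), and JMJD1C by 0.06, 0.03 and -0.09 (mean 0.0002, interval -0.73 to 0.73). The signs were mixed in all 3 genes, and 0 of the 9 were positive in every number, against 1.25% of all genes tested. KDM3A and KDM4B held exactly the control value in all 3 numbers. JMJD6 and KDM2A did so in 2 of 3, which 64.9% of all genes also did in at least 2. Small changes may be hidden where values are exactly tied. Without the block the intervals reached from -0.96 to 0.94 in the widest, KDM7A, and from -0.51 to 0.51 in the narrowest, KDM3A. These widths include the offset between numbers. With the block the widest, KDM7A, reached from -1.21 to 1.18 and the narrowest, KDM4B, from -0.05 to 0.05.

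**Figure D4:**
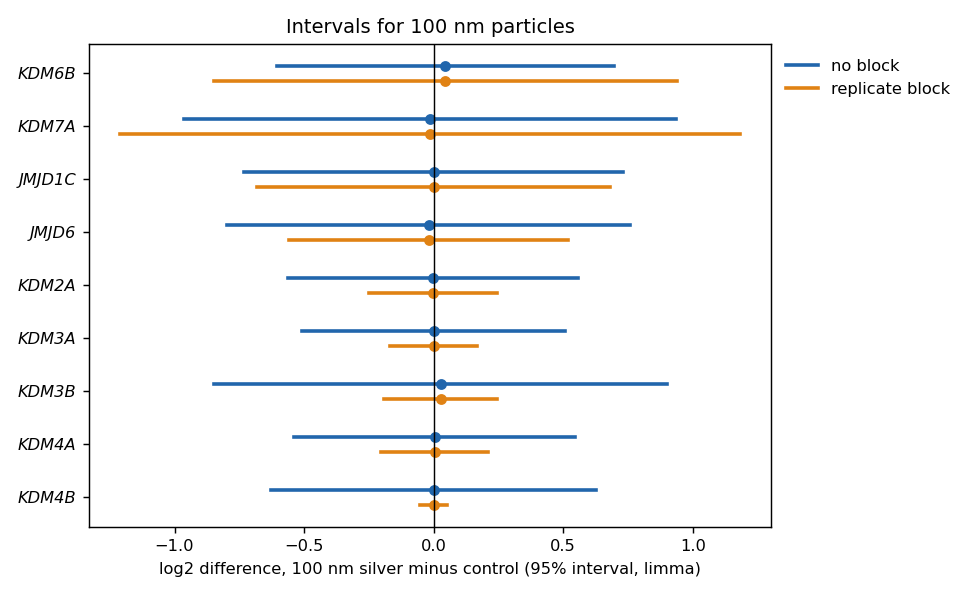
Points give the mean log2 difference of 100 nm silver from control for the 9 genes, with 95% intervals from limma without a block in blue and with the replicate number as a block in orange. All 18 intervals include 0, and the block widens them for KDM6B and KDM7A and narrows them for the other 7 genes.

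Set directly against 100 nm particles, 5 nm particles gave values close to those against controls, with which they share the 5 nm arrays. Over all genes 0.0658% passed in this comparison in limma, all of them higher, and 0.617% with the block. KDM6B was higher than with 100 nm particles by 1.61, 2.88 and 1.44, KDM7A by 2.17, 3.04 and 1.17, JMJD1C by 0.96, 1.99 and 1.11 and JMJD6 by 0.44, 1.16 and 0.28. In each of the 4 genes the level was highest with 5 nm particles, and the order of 100 nm and control arrays changed from number to number or was tied. KDM4B was lower than with 100 nm particles by the same amounts as against controls, its 100 nm and control values being identical.

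The jumonji genes outside the 9 were drawn from a list of 21, of which 17 were tested; JARID2, HIF1AN, JMJD4 and JMJD7 were not analysed here. For 5 nm against control 0 of the 17 passed in limma after Benjamini-Hochberg adjustment, where 0.074% of all genes passed, and 0 of the 17 passed with the block, where 0.65% did. The 17 are what was left after the higher genes of the family were chosen on the same contrast. These counts therefore partly follow from that choice, and the higher genes have no test to set beside them. Unadjusted p-values were below 0.05 for 0 genes in the fit with no block, against 1.65% of all genes tested, and for 5 in the blocked fit, against 14.3%: KDM5A, KDM5B and KDM6A with positive differences and RIOX1 and HSPBAP1 with negative ones. Of the 17 genes, 7 differences were positive, 8 negative and 2 exactly 0, with a median of 0, the same as over all genes tested. KDM5A, an eraser of the promoter mark placed by the MLL enzymes, had the highest at 0.27, 0.77 and 0.23 (mean 0.43, 95% interval -0.18 to 1.03, limma adjusted p = 1). With the block the KDM5A interval was 0.05 to 0.80, which excludes 0 (limma adjusted p = 0.305). Its paralogs KDM5B and KDM5C differed by means of 0.15 and 0.18. RIOX1, which hydroxylates a ribosomal protein, had the lowest at -0.25, -1.11 and -0.26 (mean -0.54, interval -1.13 to 0.04, adjusted p = 1). With the block the RIOX1 interval was -1.07 to -0.0082, which also excludes 0 (limma adjusted p = 0.346). RIOX2, its relative, differed by a mean of -0.19. The other 16 genes than RIOX1 lay within 0.5 of 0, and KDM4E reached the floor on 3 arrays only.

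Related genes were taken from 7 lists of histone methyltransferases and their partners, amine-oxidase demethylases, other oxygenases and hypoxia-responsive genes. Of the 43 tested, 0 passed for 5 nm against control in limma with Benjamini-Hochberg adjustment, where 0.074% of all genes tested passed. Unadjusted, 1, VEGFA, was below 0.05, where 1.65% of all genes tested were. With the block 9 were below 0.05 unadjusted, where 14.3% of all genes were. Negative differences made up 26 of the 43, and 5477 of the 12155 genes tested. Polycomb repressive complex genes, which place the mark that KDM6B removes, had 0 of 9 passing and a median of 0.0018, with EZH1 at -0.25 and PHF19 at -0.24. All 4 tested methyltransferases of histone H3 lysine 9, the residue that KDM3 enzymes demethylate, had negative differences and none passed. SUV39H1 was at -0.46 and EHMT1 at -0.23. The MLL and COMPASS list includes subunits of complexes that hold KDM6A and of others that do not. In this list 8 of 11 differences were negative, with MEN1 at -0.38 and PAXIP1 at -0.37. KMT2C, a catalytic subunit of a complex that holds KDM6A, was positive by 0.19, 0.23 and 0.22. It was the only gene of the 7 lists to pass with the block (adjusted p = 0.0202, against 1 without the block), where 0.296% of all genes passed as higher. KMT2C is named outside the rule for passing genes, having been picked after its values were seen.

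Of the methyltransferases of gene bodies 0 of 5 passed and 4 were negative, with NSD1 at -0.50 and NSD2 at -0.39. Other 2-oxoglutarate oxygenases had 0 of 4 passing, with TET1 at -0.41 and EGLN1, an oxygen sensor of the hypoxia pathway, at -0.07. The amine-oxidase demethylases KDM1A and KDM1B, which use another chemistry, differed by -0.04 and 0. Among 8 tested hypoxia-responsive genes 0 passed and the median was 0.18. VEGFA, a growth factor, was at 1.10 (adjusted p = 0.736) and NDRG1, which is induced by stress, at 0.27. The 9 endothelial markers had a median of -0.15 and a range of -0.38 to 0.04, 0 passing. Their part in the differences above was not tested.

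The genes whose profile was most like each member were found by Pearson's r over the 9 arrays, after the mean of each replicate number was taken off. The points share arrays and the offset correction, so the values are a description. KDM6B was closest to KCMF1 (r = 0.999), INSIG1, DENND5A, MEG3 and GTF2B, and 78 of 10520 genes with a varying profile had r above 0.99. INSIG1, which restrains sterol synthesis, was higher by 1.38, 2.44 and 1.20, sizes near those of KDM6B, whereas KCMF1 was higher by 0.36, 0.61 and 0.33. KDM7A was closest to TRIB1 (r = 0.998), PDE8A, VGLL3, SAT1 and COQ10B. SAT1, an enzyme of polyamine breakdown, was higher by 1.72, 2.21 and 0.71, with replicate 3 again the smallest. JMJD1C was closest to ERRFI1, SRSF6 and ABL2, JMJD6 to SAMTOR, LYVE1 and NOCT, KDM3A to TBPL1, JUNB and NDEL1, and KDM4A to SH2D2A, HCCS and DHX40. JUNB, an AP-1 subunit, was higher by 1.33, 1.82 and 0.33 against 0.26, 0.33 and 0.06 for KDM3A. Among the 9 themselves KDM6B had r = 0.996 with JMJD1C, 0.982 with KDM7A and 0.970 with JMJD6, and r = -0.987 with KDM4B. These members were chosen for their differences between cells given the smaller particles and unexposed cells. With the larger particles their levels stayed near those of the controls. A large r of either sign therefore largely follows from that choice, and shared regulation was not tested.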

How the data were processed

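The authors deposited log2 intensities of 9 Affymetrix whole-transcript arrays, which they made with RMA; the submitters' processing notes name Affymetrix Expression Console 1.3.1. The build behind the probe sets is not given. Of 53617 probe sets, 16098 had exactly 1 symbol in the platform annotation, and those with none or several were left out. Symbols were checked through the Entrez identifier. For a gene with several probe sets, the one with the highest mean was used. Genes reaching a log2 value of 5 on at least 3 arrays were tested.

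limma 3.58.1 (lmFit and eBayes, R 4.3.3) was run on all 9 arrays with group means, with Benjamini-Hochberg adjusted p under 0.05 over 12155 genes. The script was checked on simulated data. Replicate numbers pair the arrays: after group means were taken off, arrays sharing a number had r = 0.762 to 0.967 and other pairs -0.582 to -0.265, so that the best match of each of the 9 arrays had its own number. The same correlation could come from normalization run per number, which was not tested, and blocked p-values carry that doubt. Blocked fits leave 4 residual degrees of freedom. With 3 arrays a group, the number of arrays limits the precision.

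Of each gene list, up to 4 passing genes, or else the 2 with the largest difference, are named, and any tested jumonji gene. For likeness, 5 genes are named for KDM6B and KDM7A and 3 for each other member with r to KDM6B above 0.8. Members and lists were chosen with earlier results of these data known. Alternatives covered the block, filters, scalings, probe sets, moderation and left-out arrays.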

Additional observations from a re-analysis of the deposited data

How the results depend on the processing

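The higher members were chosen for their 5 nm difference, which was positive in every number. Leaving out a number could therefore not change its sign. The mean 5 nm minus control differences of KDM6B, KDM7A, JMJD1C and JMJD6 kept their sign under every alternative run. When 1 array or 1 replicate number was left out they ranged from 1.61 to 2.26, 1.62 to 2.68, 1.02 to 1.66 and 0.36 to 0.92. Median centring and quantile normalization over 9 arrays gave 1.34 and 1.32 for JMJD1C. With whole replicate numbers left out, the small differences kept their sign or were 0, at -0.23 to -0.07 for KDM3B, 0 to 0.18 for KDM2A, 0.05 to 0.20 for KDM4A and -0.26 to -0.22 for KDM4B. Leaving out single arrays breaks the pairing and lets in the offset between numbers; the ranges were then -0.47 to 0.16, -0.0018 to 0.30, -0.0030 to 0.28 and -0.43 to -0.05.

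For 100 nm particles, 0 genes passed under every alternative, the replicate block included. The count over all genes for 5 nm minus control, 9, became 79 with the replicate block, 15 with a floor of 6, 4 with median centring and 19 with quantile normalization over 9 arrays. It ranged from 0 to 16 with left-out arrays: 16 without the 5 nm array of replicate 3 and 0 without any 1 replicate number. The count for 5 nm minus 100 nm, 8, became 75, 15, 4 and 17 under the same 4 settings, 13 with trend and robust moderation, and 0 to 20 with left-out arrays, 20 without the 5 nm array of replicate 3. With the block and 1 number left out, settings chosen after seeing the data, both counts were 0 without replicate 1, 38 without replicate 2 and 2 without replicate 3. With the block and without replicate 2, 1 of the 17 other jumonji genes passed, RIOX1 (-0.26, adjusted p = 0.036). In the writer and partner lists 1 gene passed with the block, KMT2C, and 0 when 1 number was also left out; its adjusted p ranged from 0.0202 to 1 over 21 alternatives. Of the 9 members for 100 nm particles, and of the other listed genes for 5 nm particles on all 9 arrays, the block changed no call. The causes were not tested.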
